A study of Saccharomyces cerevisiae with 8 samples.

Results

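The mRNA of exponentially growing wild type budding yeast was described from the 2 arrays of Saccharomyces cerevisiae strain W303, out of 8 arrays in the series. Both arrays are titled as biological replicates of the wild type and were chosen by that title alone. Strain W303 is a common laboratory strain and served as the control of the study. The 6 other arrays come in pairs from 3 strains with the same background: 6EA1, which lacks both RPL12A and RPL12B (double deletion), 6EA1 with RPL12A on a high copy plasmid (plus RPL12A), and 6EA1 with RPL12B on such a plasmid (plus RPL12B). All cultures grew at 30 °C in defined medium with 0.67% yeast nitrogen base that holds no amino acids, 2% glucose and the nutrients each strain needs at 40 mg/liter. Cells were harvested in early log phase at an A600 of 0.5 to 0.6, and 10 ug of total RNA was labelled with biotin. The age of a culture is not given, and each array stands for a whole culture, so cells of different cell cycle stages are averaged.

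Yeast given plentiful glucose ferments it to ethanol even in the presence of oxygen. Glucose represses genes for other carbon sources, for gluconeogenesis and for much of respiration, through the kinase Snf1 and the repressor Mig1, and active protein kinase A and TOR signalling favour the making of ribosomes over stress protection. In such cells a large part of transcription serves ribosomal protein genes, glycolytic enzymes and the other machinery of protein synthesis, while genes for meiosis, sporulation and mating of the opposite type stay low.

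The value used is the authors' deposited signal, a linear intensity for each probe set, scaled so that each array has the same trimmed mean. A total of 5449 genes were ranked by the mean of the 2 log2 signals. Positions are given as percentiles, with 0 for the lowest gene and 100 for the highest. Wherever a pair of signals follows a gene, the value of replicate 1 comes before that of replicate 2. A signal depends on the probes as well as on the mRNA, and it is not scaled per length, so the order is one of signals and neighbours in it need not differ in mRNA number. Signals near the highest of an array may be compressed, which was not tested.

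The log2 signals of the 2 arrays correlated at a Pearson r of 0.989 over genes, a description only, since genes share an array and are no replicates. The probe sets for the fission yeast Schizosaccharomyces pombe, a species the labels do not list, gave a background of 7.84 on replicate 1 and 8.10 on replicate 2, set at the 95th percentile of their signals. On each array 99.6% of the genes lay above it. The arrays differed in a control for 25S ribosomal RNA, which gave 2476 on replicate 1 and 148 on replicate 2, while the ratio of the 3' to the 5' probe set of ACT1 was 1.03 and 1.05. Whether the 25S difference bears on the ranking was not tested. Results that rest on 1 of the arrays are given with both values.

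The ranking had a long plateau and steep ends. The highest 10% of genes, 545 in number, had mean signals of 2890 to 8274 and held 41.5% and 41.8% of the summed signal of all genes. The 1089 genes in the middle, between percentiles 40 and 60, had mean signals of 461 to 784 and held 10.9% and 10.8%. The lowest 10%, again 545 genes, had mean signals of 0.831 to 112 and held 0.488% and 0.493%. The members at the edges show how gradual the limits are. At the upper limit TMA20 gave 2887 and 2919.8 and FPR4 2686 and 3109 just inside, and GNP1 3112 and 2680.3 and HNM1 2938 and 2836 just outside. At the lower limit RRI1 gave 111 and 113 and ECM27 119 and 106 just inside, and PLM2 117 and 107 and YKL162C 114 and 111 just outside. None of these neighbours differed by more than the spread between the arrays.

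**Figure D1:**
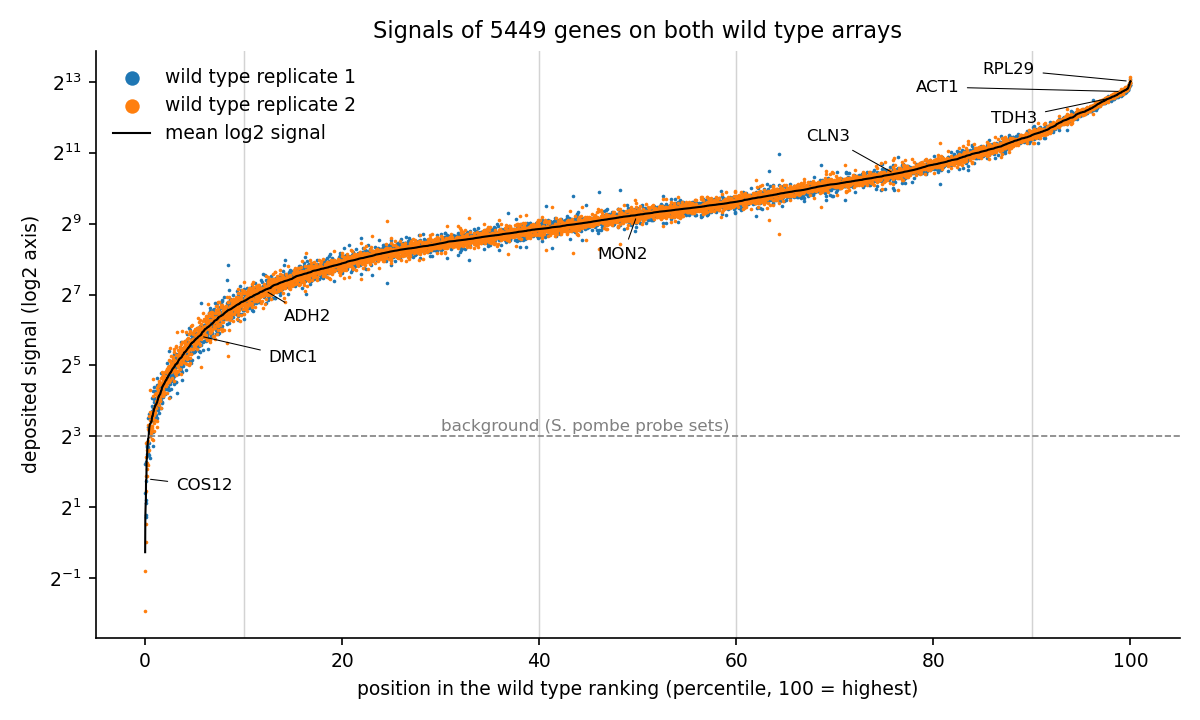
Deposited signal (log2 axis) of each gene on wild type replicates 1 and 2 against its percentile in the wild type ranking, with the mean as a line, the limits of the bands at 10, 40, 60 and 90 as grey lines and the S. pombe background as a dashed line. Both arrays follow the line closely above the median and scatter around it at the low end, where the signal falls steeply.

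The 2 arrays placed most genes alike, and best at the top. Of the 545 genes in the highest 10% of an array, 521 (95.6%) were in the highest 10% of both. For the lowest 10% the number was 497 (91.2%), and for the middle 879 of 1089 (80.7%). The median absolute log2 difference between the arrays was 0.0622 in the highest 10%, 0.121 in the middle, 0.311 in the lowest 10% and 0.493 in the lowest 1%, against 0.123 over all genes. In order the middle was the least certain: between the arrays a gene's percentile differed by a median of 3.07 there, against 0.385 in the highest 10% and 0.808 in the lowest 10%.

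Genes with only a systematic name were rare at the top of the ranking and more frequent at the bottom. Of the highest 10%, 2.75% carried only a systematic name, against 5.88% of the middle, 34.3% of the lowest 10%, 74.5% of the lowest 1% and 9.16% of all genes. Lists of 58 pathways, complexes and marker sets, drawn up with earlier results of these data known, covered 1744 of the 5449 ranked genes. They took in 410 of the 545 highest genes (75.2%), 237 of the 1089 middle genes (21.8%) and 147 of the 545 lowest (27.0%). Median coding length, introns included, was 945 bases in the highest 10%, 1383 in the middle and 909 in the lowest 10%, against 1236 over all genes. Short genes were found at both ends: of 243 genes of at most 300 bases, 32 were in the highest 10% and 101 in the lowest.

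The labels of the culture were checked against marker genes. Of 10 genes listed as markers of growth on glucose, 9 were in the highest 10%. The enolase ENO2 gave 6930.3 and 7586, the pyruvate decarboxylase PDC1 6510.4 and 6702, the pyruvate kinase CDC19 6115 and 6739, the glyceraldehyde phosphate dehydrogenase TDH3 5916 and 5929 and the alcohol dehydrogenase ADH1 5477 and 5716. The phosphofructokinase subunit PFK2 gave 4968 and 4802 and the hexokinase HXK2 4822 and 4758. The low affinity glucose transporter HXT3 gave 4834 and 4901, and HXT1 gave 2962 and 2911. The remaining marker, the transporter HXT4, gave 1999 and 2753 at percentile 87.0. All 10 lay well above the median gene on both arrays.

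Of 15 genes that glucose represses, 9 were in the lowest 10%, and their median percentile was 8.4. The ethanol-consuming alcohol dehydrogenase ADH2 gave 128 and 152, the gluconeogenic enzyme FBP1 gave 29.5 and 32.5, and PCK1, which acts in the same pathway, gave 97.4 and 145. The glyoxylate cycle enzyme ICL1 gave 166 and 173, and MLS1 gave 53.5 and 56.1, and the acetyl-CoA synthetase ACS1 gave 319 and 372. On both arrays these 6 genes lay far under each marker of growth on glucose. The lactate transporter JEN1 gave 61.6 and 73.6, the lactate dehydrogenase CYB2 212 and 203 and the transporter HXT5 94.2 and 131. The galactose enzyme GAL1 gave 110.3 and 80.5, and GAL10 gave 36.4 and 34.99. The activator of gluconeogenic genes CAT8 gave 42.4 and 64.5, and the fatty acid oxidation enzyme POX1 gave 20.9 and 31.2, and POT1 gave 13.97 and 22.00. The highest of the list was SUC2, the secreted invertase that splits sucrose, at 537 and 573 and percentile 46.8. Some genes of the wider lists below stood higher. MDH2 of the gluconeogenesis list gave 718 and 1195 at percentile 64.7. The transporter HXT7, whose probe set is shared with similar sequences, gave 1529 and 2334 at percentile 83.0.

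Markers of a cells lay above those of alpha cells on both arrays, apart from ASG7. The receptor for alpha factor, STE2, gave 3062 and 2910.4, the a factor gene MFA2 2487 and 3165, its exporter STE6 989.8 and 907 and the a factor gene MFA1 829 and 886. The protease BAR1, which degrades alpha factor, gave 773 and 747, the agglutinin subunit AGA2 579 and 724 and ASG7 80.5 and 85.3, the only one of the 7 in the lowest 10%. The markers of alpha cells were far lower. The alpha factor gene MF(ALPHA)1 gave 18.4 and 16.7, and MF(ALPHA)2 gave 20.8 and 23.2, the receptor for a factor STE3 gave 42.8 and 58.9, and the agglutinin SAG1 159.6 and 174. Of the 4, 3 were in the lowest 10%.

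Ribosomal proteins filled the top of the ranking. Of 128 measured ribosomal protein genes of the cytosol, 125 were in the highest 10%, with 12 of them among the highest 20 genes, 34 among the highest 50, 67 among the highest 100 and 110 among the highest 200. All 53 genes of the small subunit were in the highest 10%, down to RPS9A at 4130.3 and 3869 and percentile 93.8, and 72 of 75 of the large subunit. Together with their high signals went a narrow range of mean log2 signals. The SD was 0.26 over the small subunit genes and 0.57 over those of the large subunit, against 1.86 over all genes. Whether compression of high signals narrows this range was not tested. The genes of the large subunit held 7.18% and 7.37% of the summed signal, and those of the small subunit 5.25% and 5.37%. Near the median of the small subunit stood RPS2 with 6345 and 6234 and RPS3 with 6066 and 6304, whose proteins line the path of the mRNA.

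RPL29 had the highest signal of the ribosomal proteins at 8564 and 7967. RPS8A gave 8026 and 8182, and RPS8B, with which it forms a duplicated pair like most yeast ribosomal protein genes, gave 7499 and 7225. RPL42B gave 7744 and 8409, RPS21A 7693 and 8019, RPS17A 7718 and 7747 and RPS15 7827 and 7527. Lower among the highest 20 genes were RPL13B with 7547 and 7801, RPS19B with 7335 and 7702, RPL3 with 7247 and 7529, RPL11B with 6920.4 and 7311 and RPS10A with 6923 and 7297. The difference between the arrays was of the same size as that between neighbours, so the order among these genes is not settled. Near the median of the large subunit stood RPL1B with 6059 and 6182 and RPL20A with 6214 and 6026.

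The exceptions were all in the large subunit. RPL15B, the sister copy of RPL15A, gave 655 and 571 at percentile 50.2. RPL41A, which encodes a very short protein, gave 518 and 826 at percentile 52.8. RPL22B gave 2461 and 2877 at percentile 88.8. RPL41A and RPL22B were named after their values were seen. RPL12A and RPL12B, which the study deletes in the other strains and which encode the same protein, were both high. RPL12A gave 5321 and 5269 at percentile 96.7, and RPL12B gave 6537 and 7039.7 at percentile 99.2. Of the listed genes, 11 of the large and 10 of the small subunit were read by probe sets that the array maker marks as shared with similar sequences, so copies of a pair may not be told apart there.

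Much of the machinery around the ribosome was at the top as well. Of 37 translation factors 22 were in the highest 10%. YEF3, the fungal elongation factor that clears the exit site of the ribosome, gave 8037 and 8199 and ranked above all ribosomal protein genes but RPL29. TIF2, the eIF4A helicase that opens mRNA leaders, gave 7163 and 7229.9. At the median of the list the eIF3 subunit TIF35 gave 3163 and 3021, and NIP1 gave 2973 and 3126, and the lowest member was ANB1, the eIF5A gene used under low oxygen, with 132 and 169. TMA19, a protein bound to ribosomes, gave 7180.0 and 7245. Among 16 chaperones of nascent chains and cytosolic Hsp70 genes, 11 were in the highest 10%. SSB1, the Hsp70 that sits on the ribosome, gave 7582 and 7767, EGD2 of the nascent chain binding complex 5730.4 and 6002, and ZUO1, the partner of the ribosome-bound Hsp70, 4318 and 4604.

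Aminoacyl-tRNA synthetases, which load amino acids onto tRNAs, separated by compartment. Of 20 that serve the cytosol, 16 were in the highest 10%. Their signals ran from the lysyl enzyme KRS1 at 5115 and 5047 to the tryptophanyl enzyme WRS1 at 2315 and 2061 and percentile 85.7. The threonyl, aspartyl and seryl enzymes THS1, DPS1 and SES1 lay between, and DPS1 gave 4522 and 4189. Of 14 that serve mitochondria alone, none was in the highest 10%, and their median percentile was 29.3, against 94.0 for the cytosolic enzymes. The mitochondrial lysyl enzyme MSK1 was the highest with 593 and 767, the leucyl enzyme NAM2 gave 342 and 330.1, and DIA4 was the lowest with 162 and 149. The highest mitochondrial enzyme thus stood under the lowest cytosolic one.

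Glycolysis was also at the top. Of 16 glycolytic genes 13 were in the highest 10%, with a median percentile of 97.7, and the list held 1.25% and 1.29% of the summed signal. The triose phosphate isomerase TPI1 gave 7031 and 7404, the aldolase FBA1 5779 and 6242 and the phosphoglucose isomerase PGI1 5592 and 5893. Both enolases were high, with 6150.1 and 6196 for ENO1. Outside the highest 10% was PYK2, a pyruvate kinase isoform, the lowest of the list with 465 and 458 at percentile 40.2. Also in the middle band was the hexokinase HXK1 with 619 and 852.

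The branches of sugar metabolism around glycolysis had high and low members. Of 14 genes of fermentation and glycerol synthesis 6 were in the highest 10%, and the median percentile was 83.5. ACS2, which makes cytosolic acetyl-CoA on glucose, gave 3747 and 3664, the glycerol phosphate dehydrogenase GPD1 2365 and 1689.8, and PDC6, a minor pyruvate decarboxylase, was the lowest with 86.7 and 121. Of 11 genes of the pentose phosphate pathway, which makes NADPH and ribose, 5 were in the highest 10% and 2 in the lowest. The transketolase TKL1 gave 6119 and 6181 and the first enzyme of the pathway, ZWF1, 3349 and 3213. The second transketolase gene TKL2 was the lowest with 58.9 and 102.

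Biosynthesis of building blocks ranked high in this medium, which lacks amino acids apart from the supplements. Of 74 amino acid synthesis genes 42 were in the highest 10%, none in the lowest, and they held 3.93% and 3.82% of the summed signal. LYS9 of the lysine pathway was the highest with 6039 and 6489. ARO2, which makes chorismate for the aromatic amino acids, gave 3349 and 3414, ILV1, the first enzyme of isoleucine synthesis, 3392 and 3189, and CPA1 of the arginine pathway 3356 and 3119. GDH3, a glutamate dehydrogenase isoform, was the lowest with 213 and 244. GCN4, the activator of amino acid synthesis genes that is controlled mainly in translation, was the highest of 65 transcription factors with 5502 and 5417, and the only one in the highest 10%.

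Of 28 purine and pyrimidine synthesis genes 10 were in the highest 10%, led by GUA1, which makes GMP, with 4864 and 4839. Of 23 ergosterol genes 13 were there. ERG20, the farnesyl diphosphate synthase, was the highest with 5360.3 and 5577, and the reductase isoform HMG2 the lowest with 556 and 560.3 at percentile 47.0. Of 22 fatty acid and phospholipid genes 8 were there, with ACC1, the acetyl-CoA carboxylase that starts fatty acid synthesis, at 5435 and 5542. Uptake of amino acids was more mixed. Of 24 permeases for amino acids and ammonium 3 were in the highest 10% and 2 in the lowest. The general amino acid permease GAP1 gave 5663 and 5149.7 and the arginine permease CAN1 1388 and 1315, while ALP1, a close relative of CAN1, gave 41.5 and 62.7.

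The cell surface and its pumps were prominent too. Of 20 genes of proton ATPases 16 were in the highest 10%, where the plasma membrane pump PMA1 gave 5329.9 and 5272 and the vacuolar subunit VMA10 5251 and 5434. Its minor relative PMA2 was the lowest with 159 and 127. Of 37 cell wall genes 17 were in the highest 10% and 6 in the lowest, a wide range. CCW12, a wall mannoprotein, gave 6638 and 7028, the glucanase relative SCW10 2244 and 2348 and the flocculin FLO1 25.9 and 21.5. Of 10 histone genes 7 were in the highest 10%, with HTA1 for histone H2A at 7218 and 7018 and HHT1 for H3 at 5139 and 5156. The centromeric histone CSE4 gave 313 and 319.5 at percentile 27.0. Actin, ACT1, led the cytoskeleton list with 6584 and 6960.2.

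The highest gene of all was CUP1-1, a metallothionein that binds copper, with 7678 and 8915. Its locus is a tandem repeat in yeast, and its probe set is marked as shared with similar sequences, so the signal is that of the copies together. Among genes without a name the highest were elements of Ty retrotransposons. YDR316W-B gave 6363 and 6489 and YAR010C 6331 and 5985, and both were read by shared probe sets, as were YDR261W-B with 5078 and 5606 and YBL100W-B with 4188 and 3922. A short unnamed gene with a probe set of its own, YDR524C-B, gave 6002 and 5634. Of the 499 unnamed genes 15 were in the highest 10% and 187 in the lowest.

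**Figure D2:**
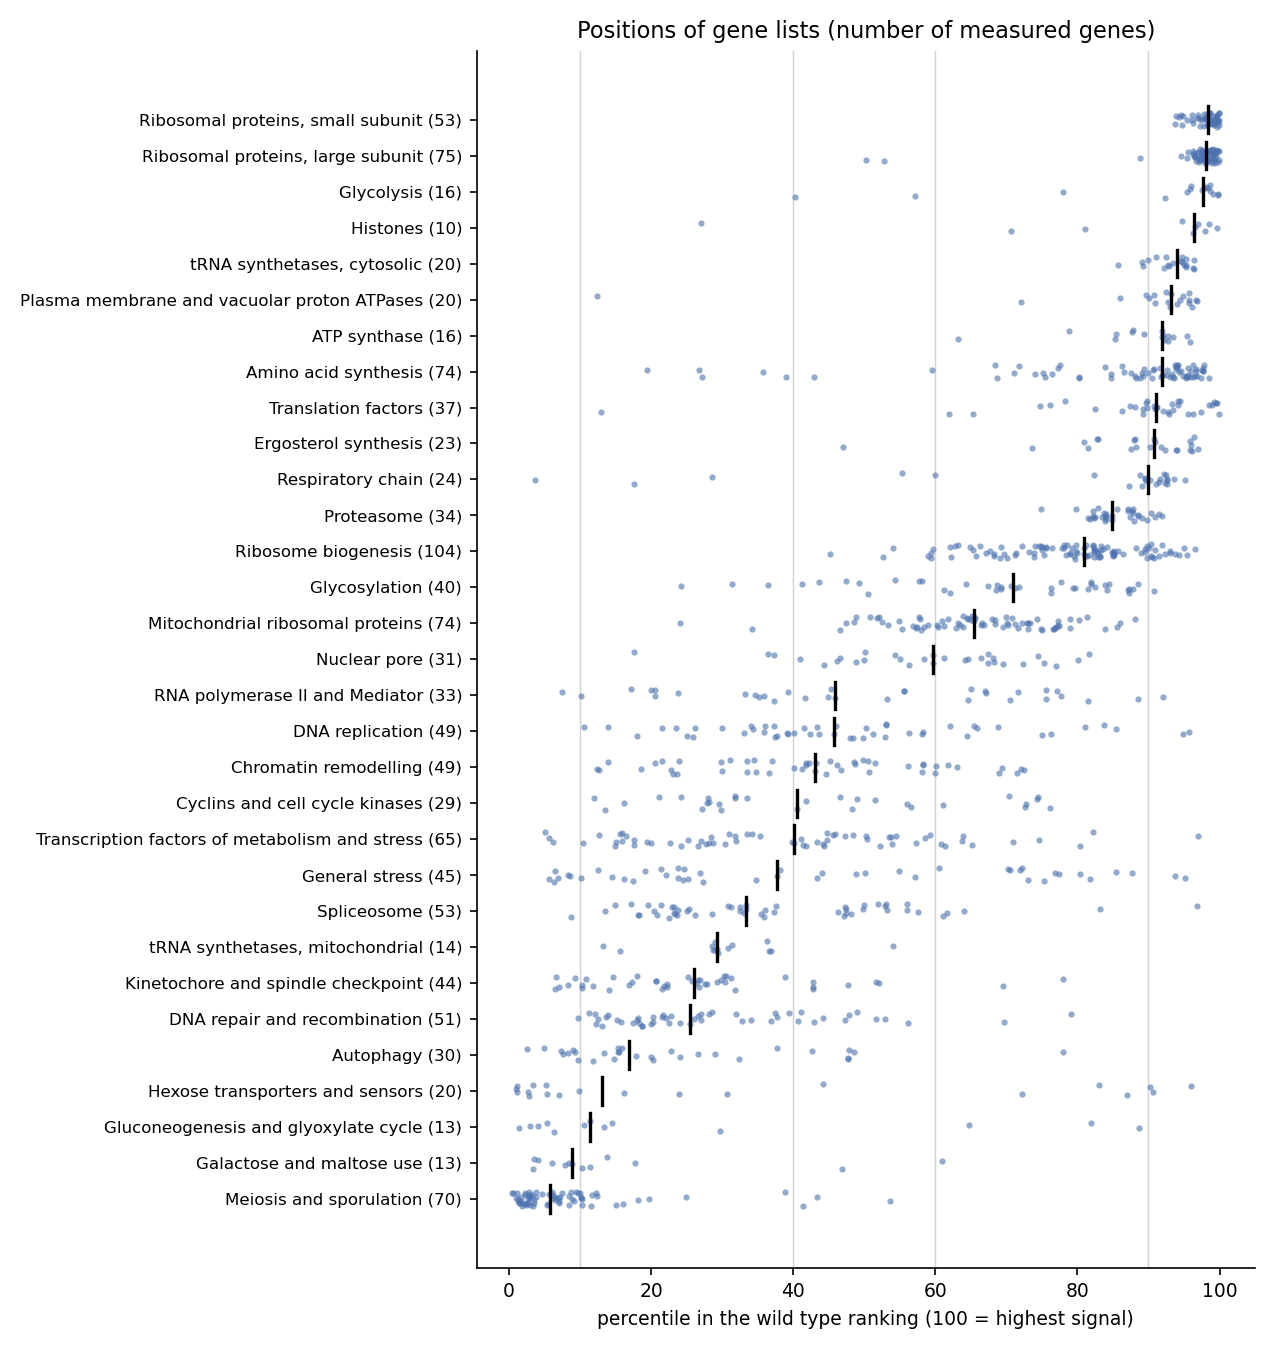
Percentile of each measured gene of 31 lists in the wild type ranking (1 point per gene, black bar at the median of the list, grey lines at 10, 40, 60 and 90), ordered by median. Ribosomal proteins and glycolysis crowd the right edge, mitochondrial ribosomal proteins and the nuclear pore lie right of the centre, and meiosis, galactose use and gluconeogenesis crowd the left edge.

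Genes of respiration ranked high in these glucose cultures. Of 24 respiratory chain genes 12 were in the highest 10%, with a median percentile of 89.96, and of 16 ATP synthase genes 9 were, with a median of 91.9. QCR8 of the cytochrome bc1 complex gave 4427 and 4648, the cytochrome c oxidase subunit COX4 2882 and 2999.7 and the ATP synthase alpha subunit ATP1 4814 and 4714. NDE2, an NADH dehydrogenase isoform, was the lowest with 32.5 and 43.7. Of 18 citric acid cycle genes 5 were in the highest 10%, where the aconitase ACO1 gave 4641 and 4816. The succinate dehydrogenase subunit SDH1 gave 2135 and 1895 and the malate dehydrogenase MDH1 2103 and 1703, near the median of their list at percentile 83.6. Whether these signals are lower than without glucose cannot be read from arrays of glucose cultures alone.

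Just below the top came the machines that build and destroy proteins. The 34 proteasome genes lay close together, with an SD of 0.31 on the log2 scale and quartiles of 1886 and 2521. Only 4 reached the highest 10%, RPN1 being the highest with 3586 and 3151, and RPT3 gave 1969.5 and 2212 near the median. The lowest of the list was RPN4, the transcription factor of the proteasome genes, with 1249 and 1355. Of 104 ribosome biogenesis genes 16 were in the highest 10% and none in the lowest, with a median percentile of 80.9. GAR1, of the snoRNPs that modify rRNA, gave 5024 and 5329, the large subunit factor NOP7 1715 and 1674 and NOP8, the lowest, 512 and 544. They thus ranked high, but under the ribosomal proteins they assemble. Of 38 genes of protein secretion 10 were in the highest 10%, and the coat GTPase ARF1 gave 4456 and 4626. The 40 glycosylation genes lay lower, with a median percentile of 70.9 and OST3 of the oligosaccharyltransferase at 1172 and 1088.

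Mitochondrial ribosomal proteins lay mostly above the median gene, and several lists of nuclear functions had their medians nearer to it. The middle band holds 1089 of 5449 genes, and list counts in it are to be read against that. Of 74 mitochondrial ribosomal protein genes none was in the highest or lowest 10%, 68 were above the median gene and 19 were in the middle, with a median percentile of 65.5, against 98.1 and 98.4 for the subunits of the cytosolic ribosome. PET123 gave 893 and 1018 and MRPL37 856 and 1057. Of 31 nuclear pore genes 13 were in the middle and none in either end. NSP1, a channel nucleoporin, gave 1826 and 1671, and the scaffold nucleoporin NUP85 845 and 716. Of 49 chromatin genes 22 were in the middle, with a median percentile of 43.0, where the silencing protein SIR4 gave 508 and 489 and the SAGA subunit SPT8 495 and 476. Of 49 replication genes 18 were in the middle. The ribonucleotide reductase RNR4 gave 4649 and 4792, the origin subunit ORC1 553 and 522 and the primase subunit PRI2 517 and 493.

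Median percentiles of the lists for the nuclear RNA polymerases were 71.1 for RNA polymerase I, 45.8 for RNA polymerase II with Mediator and 51.6 for RNA polymerase III with TFIIIC. Of 33 genes of the polymerase II list 7 were in the middle, and the lowest, the Mediator subunit NUT2, was at percentile 7.38. RPA135, the second largest subunit of polymerase I, gave 3925 and 3865, RPB8, shared by the polymerases, 3270.1 and 3457, and the Mediator subunit MED8 472 and 486. Of 65 transcription factors 23 were in the middle and 3 in the lowest 10%, with a median percentile of 40.1. GCR1, the activator of glycolytic genes, gave 528 and 423, and the activator of the respiratory genes HAP2 412 and 511. Of 29 cyclins and cell cycle kinases 8 were in the middle and none in the highest or lowest 10%. The G1 cyclin CLN3 gave 1144 and 1597, the mitotic cyclin CLB2 572 and 532 and the G1 inhibitor WHI5 192 and 97.9.

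The 10 genes nearest the median had no common function. They were MCD4, which adds phosphoethanolamine to GPI anchors, with 641 and 579.6, TFS1, an inhibitor of carboxypeptidase Y, with 658 and 565, and the prohormone protease KEX2 with 641 and 579. The actin binding protein TWF1 gave 645 and 575, the spliceosome core protein SMD2 550.4 and 672 and CDC123, an assembly factor of eIF2, 587 and 630.0. The pore membrane protein POM152 gave 666 and 555, RPM2 of mitochondrial RNase P 563 and 656, the Rab GTPase activator GYP8 679 and 543 and the endosomal trafficking protein MON2 608 and 606. The arrays differed more for most of these genes than the genes differed among each other in the mean, so no order can be read within them.

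Below the middle lay genes of splicing, chromosome segregation, repair and turnover. The median percentile was 33.3 for 53 spliceosome genes, 26.0 for 44 kinetochore and checkpoint genes and 25.4 for 51 repair genes. The spliceosome helicase PRP22 gave 382 and 382, the checkpoint protein MAD1 310.4 and 309.9 and the repair nuclease MRE11 279 and 341. The highest members of these lists also act elsewhere. SNU13, which is part of the snoRNPs too, gave 5213 and 5619, SKP1, a subunit of ubiquitin ligases, 1501 and 1416, and RAD23, which also carries substrates to the proteasome, 1558 and 1539. Of 30 autophagy genes 8 were in the lowest 10% and none in the highest, with a median percentile of 16.9. The kinase ATG1, which starts autophagy, gave 178 and 186 and ATG16 31.6 and 23.8, while ATG27 stood at percentile 77.9. Of 37 genes of peroxisomes and fatty acid oxidation 7 were in the lowest 10%, with PEX11, which divides peroxisomes, the highest at 1849 and 2246.

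Stress genes were spread over the whole ranking. Of 45 general stress genes 2 were in the highest 10%, 6 in the middle and 6 in the lowest, with a median percentile of 37.7. HOR7 was the highest with 4567 and 4503. The glycogen phosphorylase GPH1 gave 363 and 513, DDR2 324 and 591 and the aldehyde dehydrogenase ALD3 59.5 and 56.96. Of the stress genes printed here DDR2 was the most uneven between the arrays. Over the list, 2 of the 45 were more than 2-fold higher on replicate 2. Antioxidant genes ranked higher, with a median percentile of 78.9 over 23 genes. The peroxiredoxin TSA1 gave 6411 and 6266, the glutathione synthesis enzyme GSH1 1519.8 and 1557 and the peroxisomal catalase CTA1 73.8 and 57.96.

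The bottom of the ranking held genes of meiosis and of other carbon sources. Of 70 genes of meiosis and sporulation 53 were in the lowest 10%, none in the highest and 3 in the middle, with a median percentile of 5.8. The recombinase of meiosis DMC1 gave 51.2 and 63.3, the sporulation glucanase SPR1 69.7 and 56.9 and the meiotic recombination protein REC102 51.2 and 60.8. The lowest member, PFS1, gave 9.78 and 9.33, near the background, and the highest, SPO12, which also acts in mitotic exit, gave 613 and 724. Of 13 genes of galactose and maltose use 7 were in the lowest 10%. The galactose enzyme GAL7 gave 33.1 and 37.3 and the maltose transporter MAL11 83.1 and 117, while GAL80, the repressor that is needed without galactose, was the highest with 752 and 883. Of 13 genes of gluconeogenesis and the glyoxylate cycle 5 were in the lowest 10%. SFC1, a mitochondrial transporter of succinate and fumarate, gave 12.7 and 23.6, and CIT2, the peroxisomal citrate synthase, was the highest with 2945 and 2359.

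Hexose transporters were split between the ends. Of 20 genes of transporters and glucose sensors 3 were in the highest 10%, namely HXT3, HXT1 and HXT2, and 10 in the lowest. HXT2, a transporter of higher affinity, gave 2453 and 3677, the most uneven of the 3 between the arrays. The sensor RGT2 gave 271 and 298, and the sensor SNF3 gave 166 and 222, both below the median. HXT9 gave 71.7 and 78.8 and HXT13, the lowest, 16.8 and 12.6, and 5 of the 20 genes were read by shared probe sets. Of 19 cell wall genes of the seripauperin, TIR and DAN families, which are made without oxygen, 6 were in the lowest 10%. DAN1 gave 10.8 and 12.97, TIR1 109 and 152 and PAU23, the highest, 2501 and 2134. Shared probe sets read 11 of the 19.

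The lowest 20 genes included 16 without a name. YHL015W-A gave 2.63 and 0.262, YIL102C 4.66 and 0.575, YGL262W 2.31 and 1.46 and YBR013C 1.70 and 2.76. The named genes were AIF1, a mitochondrial cell death effector, with 4.82 and 1.01, COS12 of a subtelomeric family with 3.32 and 3.66, the transporter PDR18 with 6.45 and 4.75 and the protease YPS5 with 7.20 and 6.09. All 4 named genes lay under the background on both arrays, and the arrays differed several-fold for some of these 20, so their order has no weight. In all, 27 genes were not above the background on both arrays, of which 15 were under it on both, 11 of them without a name.

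A second yardstick for a silent gene came from the deleted strains. The probe sets of RPL12A and RPL12B gave 1.71 to 48.5, with a median of 16.4, in the 8 array values where the strain lacks the gene. In the wild type 225 genes (4.13%) gave no more than 48.5 on both arrays, all of them in the lowest 10%, and 104 of them had no name. By this measure the absence of an mRNA cannot be told from a low level for those 225 genes. Whether these probe sets read part of the other copy's mRNA in the plasmid strains was not tested.

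Low genes were frequent at the chromosome ends. Of the 94 ranked genes among the outermost 5 of each chromosome arm, 43 were in the lowest 10%, 8 in the middle and 1 in the highest 10%. Neighbouring measured genes in the lowest 5% formed runs, which were picked after their values were seen. The longest, of 5 genes at the left end of chromosome VII, was COS12, YGL262W, YPS5, YGL258W-A and VEL1, and the highest mean signal among them was 26.5. A run of 4 genes on chromosome XIV held PDR18, YNR071C, HXT17 and AIF1, with a highest mean signal of 14.8. Others were FLO1 with YAR064W and YAR066W on chromosome I, and DAK2, ZNF1 and YFL051C on chromosome VI. The genes on chromosome VI were the 14th to 16th from the end, and PDR18 the 9th, so the runs reach beyond the outermost 5. Shared probe sets read HXT17, YAR064W and YAR066W.

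Pairs of genes for closely related proteins often stood far apart. Of 31 measured pairs the higher member was in the highest 10% in 27, and in 16 of these the other gene lay below the median, in 6 of them in the lowest 10%. Both members were in the highest 10% for 4 pairs. Besides TKL1 and TKL2, PDC1 and PDC6, ADH1 and ADH2, PMA1 and PMA2, and HXT3 and HXT5 given above, the peroxiredoxin TSA1 stood against TSA2 with 90.8 and 80.9. The phosphogluconate dehydrogenase GND1 gave 5834 and 5503, against 95.5 and 115 for GND2. The mitochondrial citrate synthase CIT1 gave 3174 and 2974, against 37.6 and 46.7 for CIT3. TSA2, GND2 and CIT3 all lay in the lowest 10%, with both arrays far under the major copy.

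The eIF5A gene HYP2 gave 6597 and 6626, against the value of its low oxygen twin ANB1 above. The Hsp70 gene SSA2 gave 6785 and 6383, and SSA1 gave 2519 and 2117, while the stress-induced SSA4 gave 261 and 243, and SSA3 gave 186 and 198. The constitutive Hsp90 gene HSC82 gave 5797 and 5448 and the heat-induced HSP82 722 and 303, with more than a 2-fold difference between the arrays for HSP82. The cytochrome c gene CYC1 gave 3564 and 3634, against 314 and 349 for CYC7, and the oxidase subunit COX5A gave 3525 and 3413, against 647 and 947 for COX5B, its partner under low oxygen. The ribonucleotide reductase RNR1 gave 2148 and 1786, against 126 and 163 for the damage-induced RNR3. In each of these pairs the arrays of 1 gene did not overlap those of the other.

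Some pairs lay close together. The glyceraldehyde phosphate dehydrogenase TDH1 gave 3517 and 3429, below TDH3 but still at percentile 92.4. The coat GTPases ARF1 and ARF2 were both in the highest 10%, ARF2 with 3049 and 3139. HXT1 and HXT2 overlapped between the arrays, and in no other pair did they. The alpha tubulin TUB1 gave 3258 and 2945, against 1919 and 1987 for TUB3, and the glucan synthase FKS1 gave 4305 and 4681, against 1459 and 1595 for GSC2. Whether probe sets of such pairs read part of each other's mRNA was not tested.

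**Figure D3:**
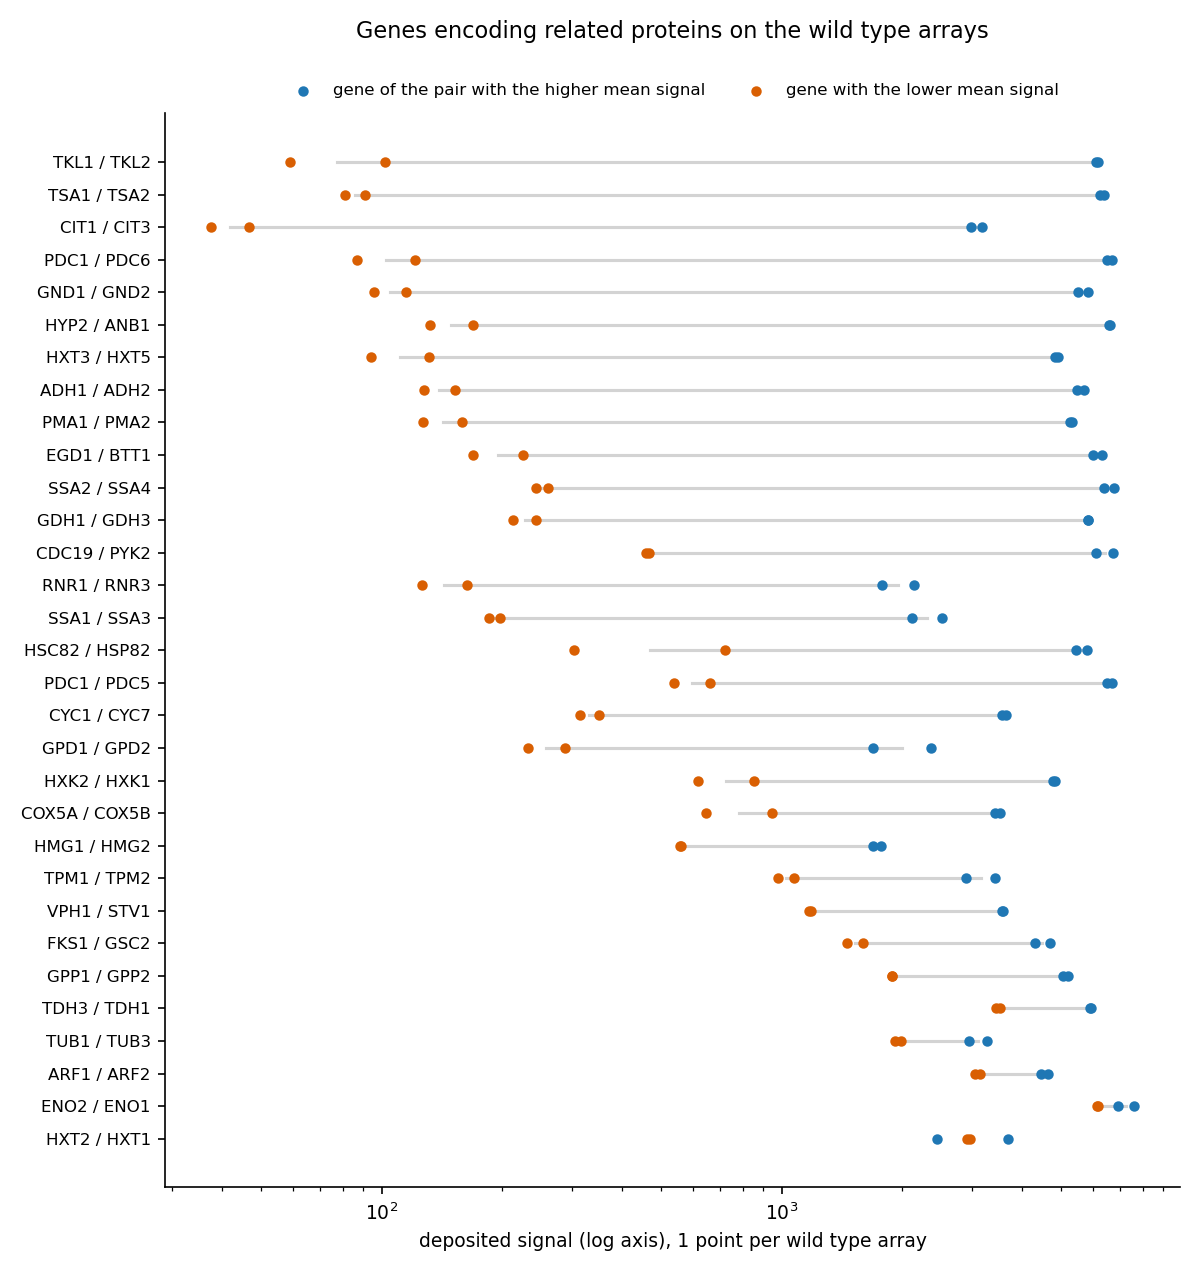
Deposited signal (log axis) of both genes of 31 pairs that encode related proteins, 1 point per wild type array, with the pair at the top having the widest gap in mean log2 signal. Transketolase, peroxiredoxin and citrate synthase genes are the widest apart, while the enolases and HXT2 with HXT1 lie closest.

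The spread between the replicates had its own pattern by function. Between the 2 arrays, 51 of 5449 genes (0.936%) differed by more than 2-fold, 27 higher on replicate 1 (0.496%) and 24 lower (0.440%). Of the 51, 33 were in the lowest 10%, none was in the highest 10%, and 39 were above the background on both arrays. With 1 value per array there is no test for a gene. For 54.3% of the genes the arrays agreed within 10%.

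Genes for the uptake of metals stood out on replicate 1. Of 36 genes for iron, copper and zinc uptake 30 were higher on replicate 1, with a median log2 difference of 0.24, against 50.8% of all genes and a median of 0.00. More than 2-fold higher were 4 of the 36, and more than 1.5-fold higher were 12, against 105 of 5449 over all genes. FET3, the multicopper oxidase of high affinity iron uptake, gave 2014 and 416, its partner permease FTR1 1882 and 995, the siderophore transporter SIT1 876 and 288 and the ferric reductase FRE1 984 and 342. The copper transporter CTR1 gave 1428 and 547. FTR1 was named after its values were seen. In the other strains 26 of the 36 were higher on replicate 1 in the double deletion, with a median log2 difference of 0.15, and 20 each in plus RPL12A and plus RPL12B, with medians of 0.04 and 0.03. Over all genes the medians in these strains were 0.02, 0.03 and 0.03. FTR1 was higher on replicate 1 in each of these strains, with 977 and 781 in the double deletion, 1003 and 650.0 in plus RPL12A and 1075 and 756 in plus RPL12B. FRE1 was as well, with 442 and 379, 357 and 280.0, and 427 and 335 in the same order of strains. FET3 gave 818 and 464 in the double deletion and 886 and 523 in plus RPL12A, but 958 and 964 in plus RPL12B, whereas CTR1 was lower on replicate 1 in all 3. The difference between the strains in this gap was not tested. On the 6 other arrays FET3 ranged between 464 and 964 and CTR1 between 375 and 527, so replicate 1 lay above all of them for both genes while replicate 2 lay below them for FET3 and above for CTR1. The 25S control differed between the wild type arrays as well, and its part in these differences was not tested.

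Other genes with wide gaps were higher on replicate 1 too. RRT5 gave 227 and 38.7, SPO19 109 and 31.1 and YER053C-A 952 and 311. On replicate 2 the ribosome-associated TMA10 was higher, with 159 and 535, as were the mannosyltransferase KTR2 with 251 and 570.0, YKR075C with 1119 and 2484, GRE1, a gene of osmotic stress, with 43.9 and 105 and the sodium-dependent phosphate transporter PHO89 with 186 and 399. Among hexose transporters and sensors 16 of 20 were higher on replicate 2, with a median log2 difference of -0.26 for replicate 1 minus replicate 2. More than 1.5-fold higher on replicate 2 were 3 of the 20, against 145 of 5449 over all genes. Over all genes 50.8% were higher on replicate 1. Of the 20, 10 were in the lowest 10%, where the median absolute log2 difference over all its genes was 0.311. Of the cytosolic tRNA synthetases 19 of 20 were higher on replicate 1, but by a median of only 0.08, and none by more than 1.5-fold. The lists at the top moved little: no small subunit gene and 1 large subunit gene differed by more than 1.5-fold.

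**Figure D4:**
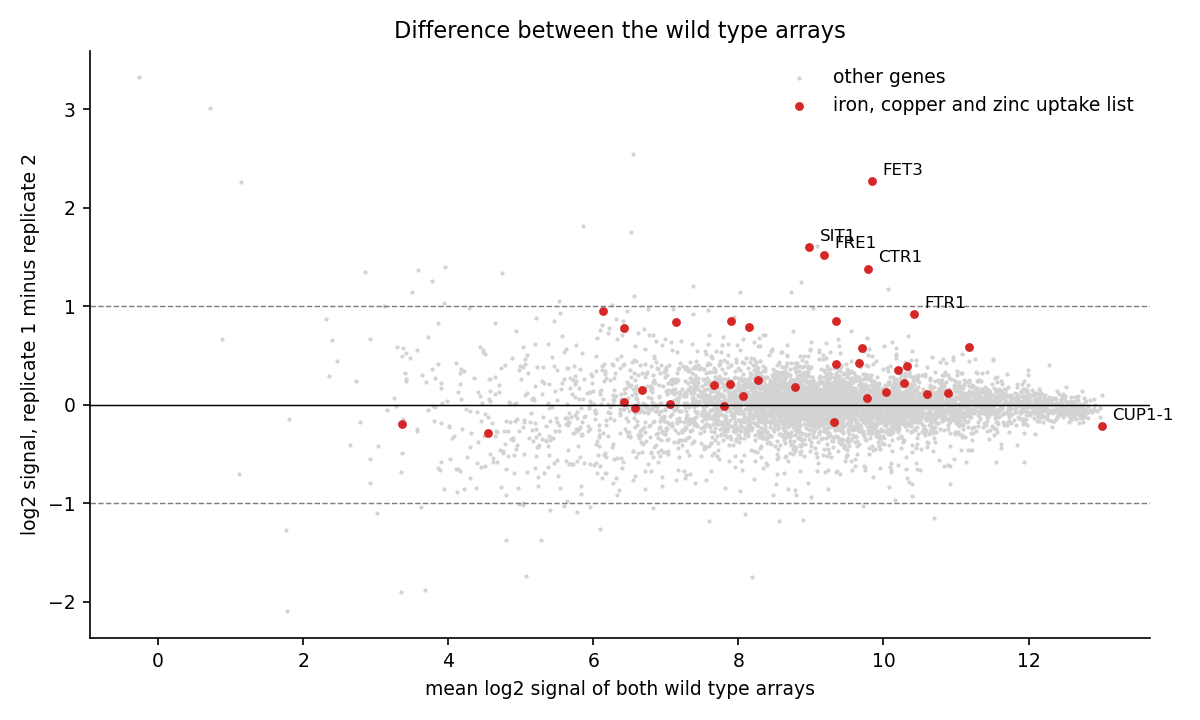
Difference in log2 signal between wild type replicate 1 and replicate 2 against the mean log2 signal for each of 5449 genes, with genes for iron, copper and zinc uptake in red and dashed lines at 2-fold. The scatter is wide at low signals, narrow at high ones, and 30 of the 36 red points lie above 0, with FET3, SIT1, FRE1 and CTR1 above the upper dashed line.

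The wild type ranking was shared in large part by the other strains. Of the 545 highest genes of the wild type, 468 (85.9%) were also among the highest 545 of the double deletion, 487 (89.4%) of plus RPL12A and 486 (89.2%) of plus RPL12B. For the lowest 545 the numbers were 466, 477 and 474. These shares were not tested.

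Single genes were tested with limma on all 8 arrays as the wild type minus the mean of the 3 other strains. Of 5439 genes tested, 616 (11.3%) were higher in the wild type and 923 (17.0%) lower at an adjusted p under 0.05, or 28.3% in either direction, and for 2425 (44.6%) the wild type arrays lay outside the range of the other 6. The other strains all carry the double deletion, and the comparison rests on 2 wild type arrays. The split between higher and lower followed the scaling: centring on the median gene gave 1092 higher and 545 lower, centring on the hybridisation controls 82 and 2366, and quantile normalization 405 and 362. With the arrays split by the 25S control as a block, 857 were higher and 1374 lower. Leaving out replicate 1 left 63 calls and leaving out replicate 2 left 60. RPL12A and RPL12B are lacking from some of the other strains, so their differences follow from the genotypes.

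Phosphate genes led the genes higher in the wild type. SPL2, a regulator of phosphate transporters, gave 688 and 533 in the wild type, while the other arrays lay between 12.9 and 143 (median 78.8), a log2 difference of 3.54 (SE 0.28, limma adjusted p = 0.00129). PHO84, the high affinity phosphate transporter, gave 3438 and 2494 in the wild type, while the others lay between 51.3 and 1119 (median 595). The difference was 3.16 (limma adjusted p = 0.00444). For both genes the double deletion was the lowest, with 12.9 and 19.0 for SPL2 and 65.6 and 51.3 for PHO84. The plasmid strains lay between 74.3 and 143 for SPL2 and between 347 and 1119 for PHO84, so the pooled difference is not that of each strain. The acid phosphatase gene PHO11 differed by 2.25 and the phosphate regulated PHM6 by 1.87. Of the 28 genes of the phosphate regulon 11 were called higher and 4 lower in the wild type, against 11.3% and 17.0% of all tested genes. Among them PHO5 averaged 973 in the wild type and 386 in the others, VTC3 of polyphosphate synthesis 1346 and 661, and PHM7, which was lower in the wild type, 77.3 and 290.1.

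Transporters of other nutrients were also among the largest rises. The sulfate transporter SUL1 gave 2249.8 and 2336 in the wild type, while the others lay between 132 and 1448 (median 1116). The difference was 1.88 (limma adjusted p = 0.000626). It pools unlike strains: the double deletion gave 132 and 174, and the plasmid strains lay between 1029 and 1448. The zinc transporter ZRT1 gave 2844 and 1890.0, while the others lay between 363 and 1289.9 (median 634). The difference was 1.76 (limma adjusted p = 0.0143). ZRT1 also pools unlike arrays: the double deletion gave 363 and 437, plus RPL12A 556 and 1289.9 and plus RPL12B 712 and 1266. FCY21, a relative of the purine and cytosine permease, differed by 1.79, HMS2 by 2.45 and HO, the mating type endonuclease, by 2.11. The genes of largest difference were picked among called genes whose wild type arrays lay outside the range of the other 6. That the wild type lay above each other array in these genes is thus part of the choice.

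Several stress genes and LEU2 were among the genes lower in the wild type. NCA3 gave 74.3 and 73.7 in the wild type, while the others lay between 408 and 1061 (median 688), a difference of -3.25 (limma adjusted p = 0.000626). RTC3 gave 265 and 339 in the wild type, against values between 1639.9 and 4434 (median 2911) in the others, and the cell wall protein SPI1 197 and 214, against values between 776 and 2053 (median 1043). The stress gene DDR2 differed by -2.33 (limma adjusted p = 0.00302) and the small heat shock protein HSP42 by -2.16 (limma adjusted p = 0.0251). HSP42 was uneven within the other strains, with 1776 and 889 in the double deletion, 726 and 1701 in plus RPL12A and 602 and 2142 in plus RPL12B. LEU2, an enzyme of leucine synthesis, gave 513 and 393 in the wild type, while the others lay between 1797 and 2463 (median 2265). The genes YJL213W, PET18, IZH4 and YER039C-A differed by -2.30, -2.17, -2.00 and -1.95. IZH4 was uneven too, with 288 and 962 in the double deletion, 462 and 969 in plus RPL12A and 452 and 1192 in plus RPL12B. All 10 genes were picked among called genes that lay lower on both wild type arrays than on any other array, so that separation is no further result. Of these genes and those named as higher, 9 of 21 kept their call when either wild type array was left out in turn.

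**Figure D5:**
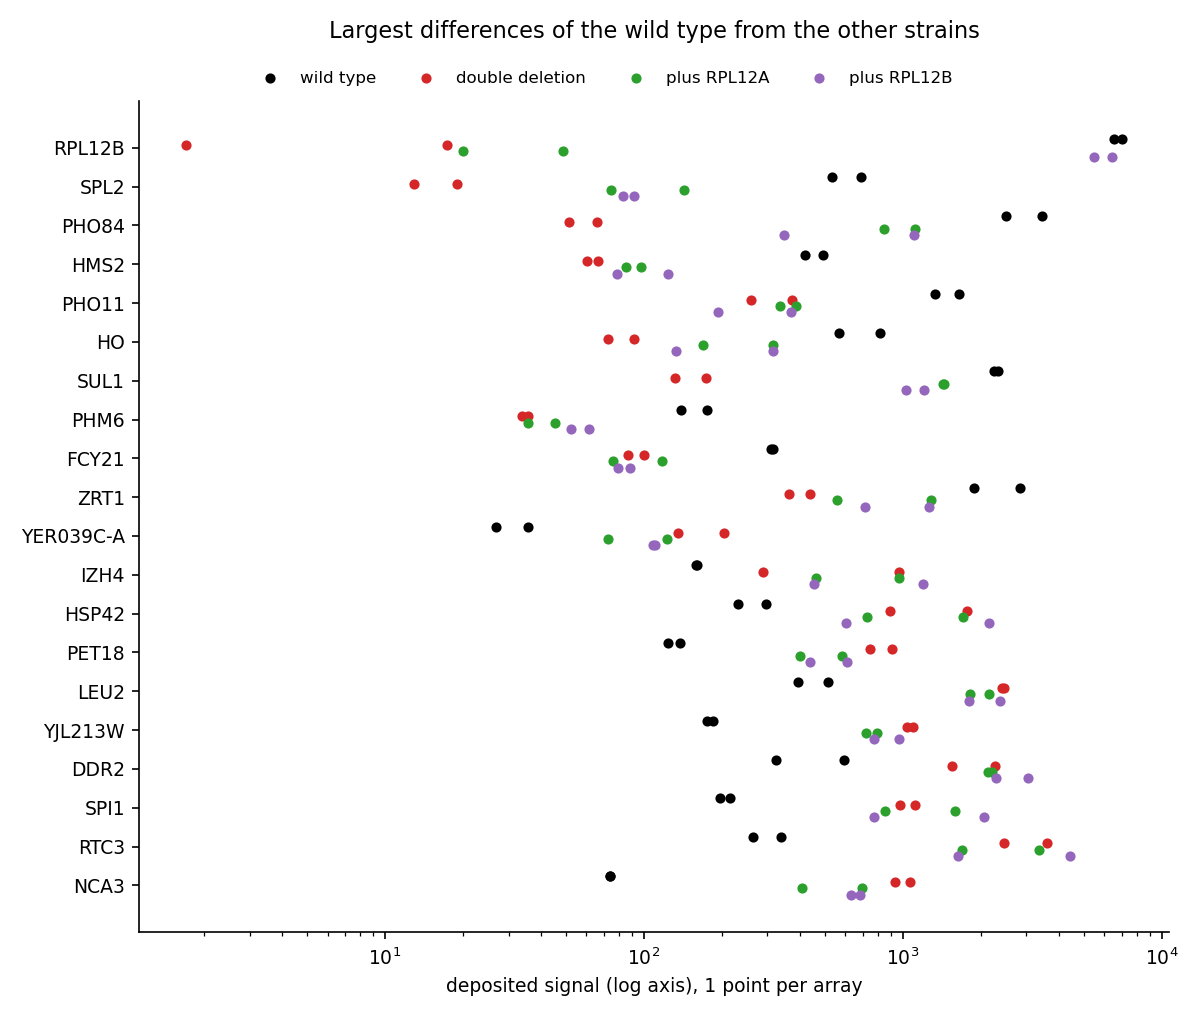
Deposited signal (log axis) on each of the 8 arrays for 20 genes, the wild type drawn uppermost within each gene. They have the largest called differences from the other strains among genes whose wild type arrays do not overlap the other arrays. By that choice the wild type points lie right of all others in the upper 10 genes and left of all others in the lower 10. RPL12A, with a log2 difference of 5.76, is not drawn because its arrays overlap. RPL12B is lacking from the double deletion and plus RPL12A strains.

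Over lists, the wild type differences were read beside all 5439 tested genes, of which 11.3% were called higher and 17.0% lower. Their median difference was -0.08, 0.05 with centring on the median gene, 0.01 with quantile normalization and -0.37 with centring on hybridisation controls. Mitochondrial ribosomal proteins had a median above 0 under each of these scalings: 52 of 74 were called higher and none lower, with a median difference of 0.44, and of 0.57, 0.47 and 0.15 under the other scalings. MRPL37 averaged 957 in the wild type and 696 in the other strains (limma adjusted p = 0.0233), and PET123 956 and 719 (limma adjusted p = 0.0392). Of the cytosolic ribosomal proteins 49 of 73 of the large and 33 of 53 of the small subunit were called higher, none lower. Their medians of 0.22 and 0.22 became 0.03 and 0.04 with quantile normalization, near the 0.01 of all genes. With centring on the median gene they were 0.35 and 0.35. With centring on hybridisation controls they were -0.07 and -0.07, below 0 but above the -0.37 of all genes. Of 45 general stress genes 14 were called lower and none higher, with a median of -1.03, and of -0.89, -0.91 and -1.31 under the other scalings. Of 30 autophagy genes 13 were called lower and none higher. Their median was -0.50, and -0.37, -0.22 and -0.79 under the other scalings. ATG1 averaged 182 in the wild type and 401 in the others (limma adjusted p = 0.00715).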

How the data were processed

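Yeast RNA was measured on Affymetrix arrays, 1 per culture, 2 cultures in each of 4 groups. The authors deposited a linear intensity for each of 10928 probe sets, computed by MAS5, as the submitters' processing notes have it. No source used here states which version. Each array's deposited intensities, trimmed by 2%, averaged 500.2. Raw array files were not used here, and promoter and protein sequences were not analysed here. The number of arrays limits the precision.

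The annotation table put 5498 probe sets on 5449 S. cerevisiae genes. For the 47 genes with several, the one with the largest mean log2 intensity over the 8 arrays was used. Names, coding length and gene order came from RefSeq for assembly R64. Because the reference table gives no build of the array design, no positions are printed. Annotated spans were multiples of 3 for 97.0% of the genes.

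Bands were the highest 10%, percentiles 40 to 60 and the lowest 10%. Background was the 95th percentile of 1746 S. pombe probe sets. The ranking was described without a test. For the wild type minus the mean of the 3 other groups, log2 signals of genes above background on at least 2 arrays (10 genes left out) were fitted with limma 3.58.1 in R 4.3.3 (lmFit, eBayes with trend, 4 residual and 3.23 prior degrees of freedom), 2-sided, with Benjamini-Hochberg adjustment and a threshold of 0.05. The titles call the replicates biological, and nothing says more of the cultures. On data simulated for this contrast over 5439 genes, 42%, 82%, 96% and 96% of 50 genes each were recovered at log2 changes of 0.5, 1, 2 and 4, with 11 false calls. The simulated arrays varied independently and without shifts in scaling. These rates therefore do not cover deviations shared by same-numbered arrays or the choice of scaling.

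The members and lists were chosen with earlier results of these data known. Genes named are RPL12A and RPL12B, the 20 highest, 10 middle and 20 lowest genes, the highest, lowest and up to 4 median members of each list, all marker genes, both genes of each pair, the 10 largest differences between the wild type arrays each way and the 10 largest called differences from the other strains each way. The largest called differences were taken only among genes whose wild type arrays do not overlap the other arrays. Alternatives were other scalings, probe set rules, filters, band widths, variance models, thresholds, blocks and leaving out each array. Figures used Python 3.11.15 and matplotlib 3.10.9.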

Additional observations from a re-analysis of the deposited data

Results flagged for a closer look

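Signal was present in data that the ranking does not use. Of 3517 probe sets with no gene name in the annotation used, controls aside, 240 gave signals above the 99th percentile of the S. pombe probe sets on both wild type arrays. Of these, 14 stood at or above the lower limit of the highest 10% of named genes, and the highest had a mean signal of 6935. The genes behind these probe sets are not named here.

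Some S. pombe probe sets also gave signal in the wild type. The highest was act1, the fission yeast actin gene, with 62.2 on replicate 1 and 59.2 on replicate 2, against a background of 7.84 and 8.10. Next were hta1 with 50.1 and 39.4 and gua1 with 37.0 and 28.3. The S. cerevisiae genes ACT1, HTA1 and GUA1 were themselves high, at 6584 and 6960.2 for ACT1, 7218 and 7018 for HTA1 and 4864 and 4839 for GUA1. Whether S. cerevisiae RNA was read by these probe sets was not tested.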

How the results depend on the processing

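Counts of the ranking followed the width of the bands. With bands of 5% and 20%, genes in the top band of both arrays numbered 253 and 1034, list members in the top band 239 and 662, list members in the bottom band 64 and 282, and genes near chromosome ends in the bottom band of 5% numbered 20. The other alternatives for these counts and for the spread between arrays stayed within 1.5 times. The median percentile of a list moved most, by 12.96, for metal uptake without wild type replicate 1, and otherwise by at most 10.8, for subtelomeric families read by unshared probe sets alone.

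The contrast of the wild type with the other strains depended on scaling and on single arrays. Its calls numbered 1539 in all, 767 with quantile normalization, 2448 with hybridisation control centring, 325 at a threshold of 0.01 and 156 with a minimum of 2-fold. Genes higher in the wild type numbered 1092 with median centring, 405 with quantile normalization, 82 with hybridisation control centring, 137 at 0.01 and 29 with 2-fold. Genes lower numbered 545, 362, 2366, 188 and 127 in the same order. The calls that all 4 scalings share were 82 for higher genes and 295 for lower. Leaving out single arrays gave 60 to 1652 calls, 16 to 661 higher and 44 to 991 lower. Fewer arrays were fitted there, and the lone wild type array was assumed to vary like the other groups. Without double deletion replicate 1 the numbers were 935, 389 and 546. None of the named genes changed direction, but higher calls outnumbered lower ones with median centring and with quantile normalization. With the replicate number as a block, 862 genes were higher and 1335 lower. Deviations from the group means of same-numbered arrays correlated at 0.05 to 0.79 over 6 pairs of groups, 1 of them under 0.1. All were positive. The 25S control was also lower on replicate 2 in each strain. It gave 2476 and 148 in the wild type and 4319 and 3947 in the double deletion. In plus RPL12A it gave 5720 and 277, and in plus RPL12B 4933 and 312. The labels name no pairing and the main fit used none, and whether same-numbered arrays share a batch was not tested. With the arrays split by the 25S control as a block, 857 were higher and 1374 lower.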
